A study of Mus musculus with 24 samples.

Results

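The Myc and Mxd network was followed through 24 messenger RNA libraries of T cells from OT-1 mice. Its 9 genes are Myc, Mycn, Mycl, Max, Mxd1, Mxd3, Mxd4, Mnt and Mxi1, taken from the 48526 genes in the files by symbol. They were picked by name and not by a cut on measured values, though with earlier results of these data known. All 9 were detected and all 9 passed the filter on low counts, as did 14560 genes in all.

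OT-1 mice carry a transgenic T cell receptor on CD8 T cells that recognises a peptide of chicken ovalbumin (OVA). Cultured splenocytes of all 6 groups received peptide, at 2 µg/mL per the labels. A Toll-like receptor (TLR) agonist was added 1 h ahead of the peptide in 4 of them. The groups were TLR7 at 72 h, TLR2 at 72 h, OVA (peptide alone) at 72 h, TLR7 at 24 h, TLR2 at 24 h and OVA at 24 h, with 4 libraries each. The protocols give Pam3CSK4, a TLR2 agonist, at 300 ng/mL, and both gardiquimod at 3 µg/mL and R848 at 10 µg/mL as agonists of TLR7, without saying which of these last was used here. No culture without peptide and no unstimulated T cell was analysed here, and ages are not given. T cells were taken from each mixed culture by magnetic removal of other cells, so the agonists could reach the T cells and the other splenocytes alike. The labels do not say whether the 4 libraries of a group came from separate mice or cultures, so the p-values measure the spread between these libraries, which may be technical.

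Library totals ran from 10.5 to 27.1 M (mega) counts. On the first principal component 8 libraries lay between the remaining 24 h and 72 h libraries, namely TLR2 72 h replicates 1, 3 and 4, OVA 72 h replicate 4, TLR7 24 h replicates 3 and 4 and OVA 24 h replicates 1 and 3. They are called the middle libraries here. Their scores ran from -20.5 to -1.21, against -90.5 to -56.5 in the other 72 h libraries and 85.2 to 99.1 in the other 24 h libraries. Results that rest on them are given with and without them. Since these libraries were picked from the expression data, p-values without them can be too small. A list of 10 T cell markers, with Cd8a and Cd8b1 beside genes shared with CD4 T cells such as Cd3e and Lck, was summed. It held 1970 to 4490 CPM (counts scaled to library size) in every library. Some markers listed below for CD4 T cells (Ctla4) and natural killer cells (Eomes and Gzma) are also expressed by activated CD8 T cells. Summed B cell markers (18 genes) held 159 to 289 CPM in TLR7, 290 to 699 CPM in TLR2 and 396 to 874 CPM in OVA libraries at 72 h. At 24 h they held 461 to 633 CPM in TLR7, 834 to 913 CPM in TLR2 and 537 to 1307 CPM in OVA libraries. Markers of CD4 T cells (5 genes) summed to 101 to 1625 CPM, macrophages and monocytes (12) to 47.5 to 192 CPM, natural killer cells (8) to 9.04 to 158 CPM, neutrophils (9) to 0 to 141 CPM and erythroid cells (7 of 8 in the files) to 0.210 to 24.8 CPM over the groups.

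Myc is a transcription factor that binds DNA as a dimer with Max, chiefly at the E-box CACGTG, and drives growth, ribosome production and metabolism. Activated T cells need it to grow and divide. Mxd proteins, Mxi1 and Mnt also pair with Max and bind the same E-box, but recruit the Sin3 corepressor, so they compete with Myc for Max and for its sites. In many tissues Myc is high in dividing cells and Mxd1, Mxd4 and Mxi1 are high in cells that leave the cycle, while Mxd3 is known from cells in S phase.

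The E-box was searched for in the upstream 250 bases of the RefSeq start sites (GRCm38.p6), where the motif reads the same on both strands. Windows were matched for 8 of the 9 genes, all but Myc, at 10 start sites in all. CACGTG stood in 2 of these 10 windows, those of Mxd4 and Mnt, against 6.02% of the 32851 start sites of all genes. The Mxd4 window (chr5:34187711-34187960, minus strand) and the Mnt window (chr11:74830674-74830923, plus strand) are shown 5′ to 3′ because they hold these letters. Mxd4 passed over time with TLR2 and OVA but not with TLR7, and Mnt did not pass the test in any comparison. Capitals mark the E-box, which starts 219 bases upstream of the Mxd4 start site and 123 bases upstream of the Mnt start site.
Mxd4: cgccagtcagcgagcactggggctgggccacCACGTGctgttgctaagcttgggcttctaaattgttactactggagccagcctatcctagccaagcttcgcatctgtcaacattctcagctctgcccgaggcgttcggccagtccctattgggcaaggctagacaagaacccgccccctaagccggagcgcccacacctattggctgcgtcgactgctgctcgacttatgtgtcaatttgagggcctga
Mnt: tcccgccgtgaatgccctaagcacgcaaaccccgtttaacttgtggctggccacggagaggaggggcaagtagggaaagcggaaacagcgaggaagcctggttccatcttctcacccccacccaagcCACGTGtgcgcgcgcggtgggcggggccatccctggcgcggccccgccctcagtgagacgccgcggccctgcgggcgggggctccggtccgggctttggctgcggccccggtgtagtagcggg
A match is a description of the letters and not evidence of binding.

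The network was dominated by Myc. The Mxd genes, Mxi1 and Mnt together averaged 15.2, 15.1 and 23.0% of its summed level per kilobase with TLR7, TLR2 and OVA at 72 h, and 8.55, 5.28 and 8.89% at 24 h, a description with no test. Per kilobase of exon, Myc averaged 160 ± 20.1 CPM in TLR7, 152 ± 27.3 in TLR2 and 106 ± 42.5 in OVA libraries at 72 h, and 196 ± 39.7 in TLR7, 153 ± 12.8 in TLR2 and 133 ± 10.9 in OVA libraries at 24 h (SD, n = 4 each). Max came next at 24 h, at 27.8 to 37.5 CPM per kilobase in the group means, and Mxi1 stood beside it at 72 h, at 15.8 to 17.5 CPM per kilobase against 11.5 to 22.1 for Max. By library, the Mxd genes, Mxi1 and Mnt made up 13.6 to 36.6% in the 8 other 72 h libraries, 10.4 to 14.6% in the 8 middle libraries, which came from both times, and 4.62 to 5.63% in the 8 other 24 h libraries. The share of Myc, Mycn and Mycl was 43.6 to 81.9%, 71.7 to 78.4% and 73.7 to 81.0% in the same order of libraries. Shares sum to 100 and so are not independent of each other.

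**Figure D1:**
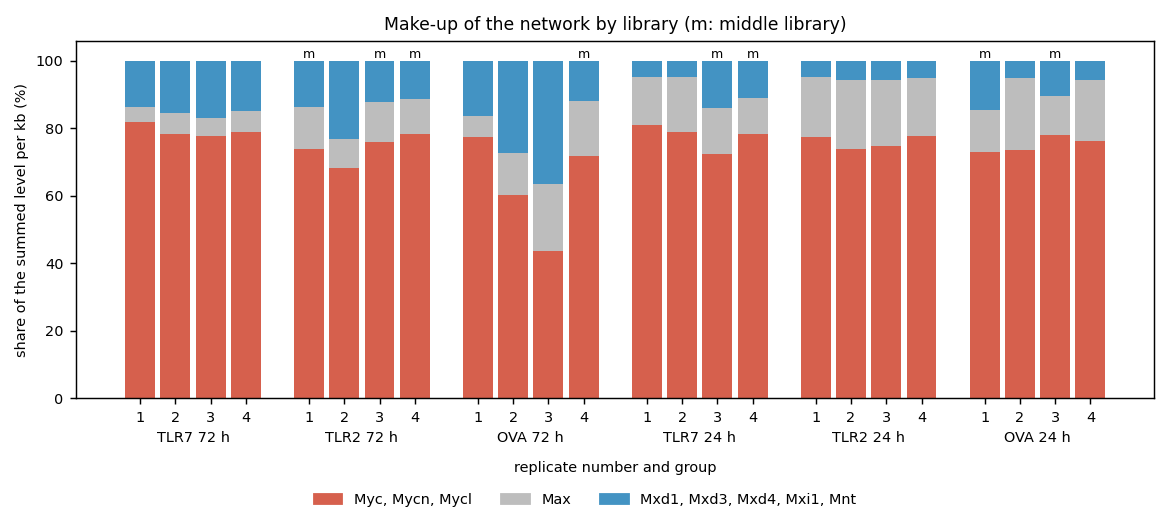
Share of the network's summed level per kilobase (vertical axis, %) held by Myc, Mycn and Mycl, by Max, and by Mxd1, Mxd3, Mxd4, Mxi1 and Mnt in each of the 24 libraries (horizontal axis, replicate number and group; m marks a middle library). The Mxd, Mxi1 and Mnt share was 4.62 to 5.63% in the 24 h libraries without an m, and 36.6% in OVA 72 h replicate 3.

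Myc itself (chromosome 15, 61985391 to 61990374, plus strand, GRCm38) did not pass the edgeR test in any comparison of all libraries. It had 490.1, 380.3, 470.4 and 394 CPM in TLR7, 371, 344, 426 and 512 CPM in TLR2, and 432, 245, 159 and 314 CPM in OVA libraries at 72 h. At 24 h it had 682, 513, 424 and 508 CPM in TLR7, 445, 374, 399 and 443 CPM in TLR2, and 389, 348, 381 and 326 CPM in OVA libraries. Every TLR7 library at 24 h was above every OVA library at that time, where these groups did not overlap for 6.64% of all genes tested. At 72 h the groups overlapped, with 3 of the 4 OVA libraries below every TLR7 and TLR2 library. The log2 fold change of TLR7 over OVA was 0.56 (SE 0.21, edgeR adjusted p = 0.310) at 24 h and 0.59 (SE 0.21, adjusted p = 0.123) at 72 h, and that of TLR2 over OVA was 0.20 (SE 0.21) and 0.52 (SE 0.21, adjusted p = 0.382) at the same times. None of these passed after adjustment over all genes. The unadjusted edgeR p for TLR7 over OVA was 0.0157 at 24 h and 0.0110 at 72 h. That for TLR2 over OVA at 72 h was 0.0227. Of all genes, 10.1%, 18.7% and 11.6% had an unadjusted p under 0.05 in these comparisons. Without OVA 72 h replicate 1, Myc passed in TLR7 over OVA at 72 h (edgeR adjusted p = 0.00996), beside 1370 of all genes. The TLR7 response at 72 h minus that at 24 h was 0.03 (SE 0.30), so it differed between the times by less than its error. Between 72 h and 24 h, Myc differed by -0.29 (SE 0.21) with TLR7, -0.01 (SE 0.21) with TLR2 and -0.33 (SE 0.21) with OVA, with adjusted p of 0.261, 0.981 and 0.243. In order of group means, TLR7 at 24 h was highest and OVA at 72 h lowest, and neighbours in that order lay within their spread of each other.

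**Figure D2:**
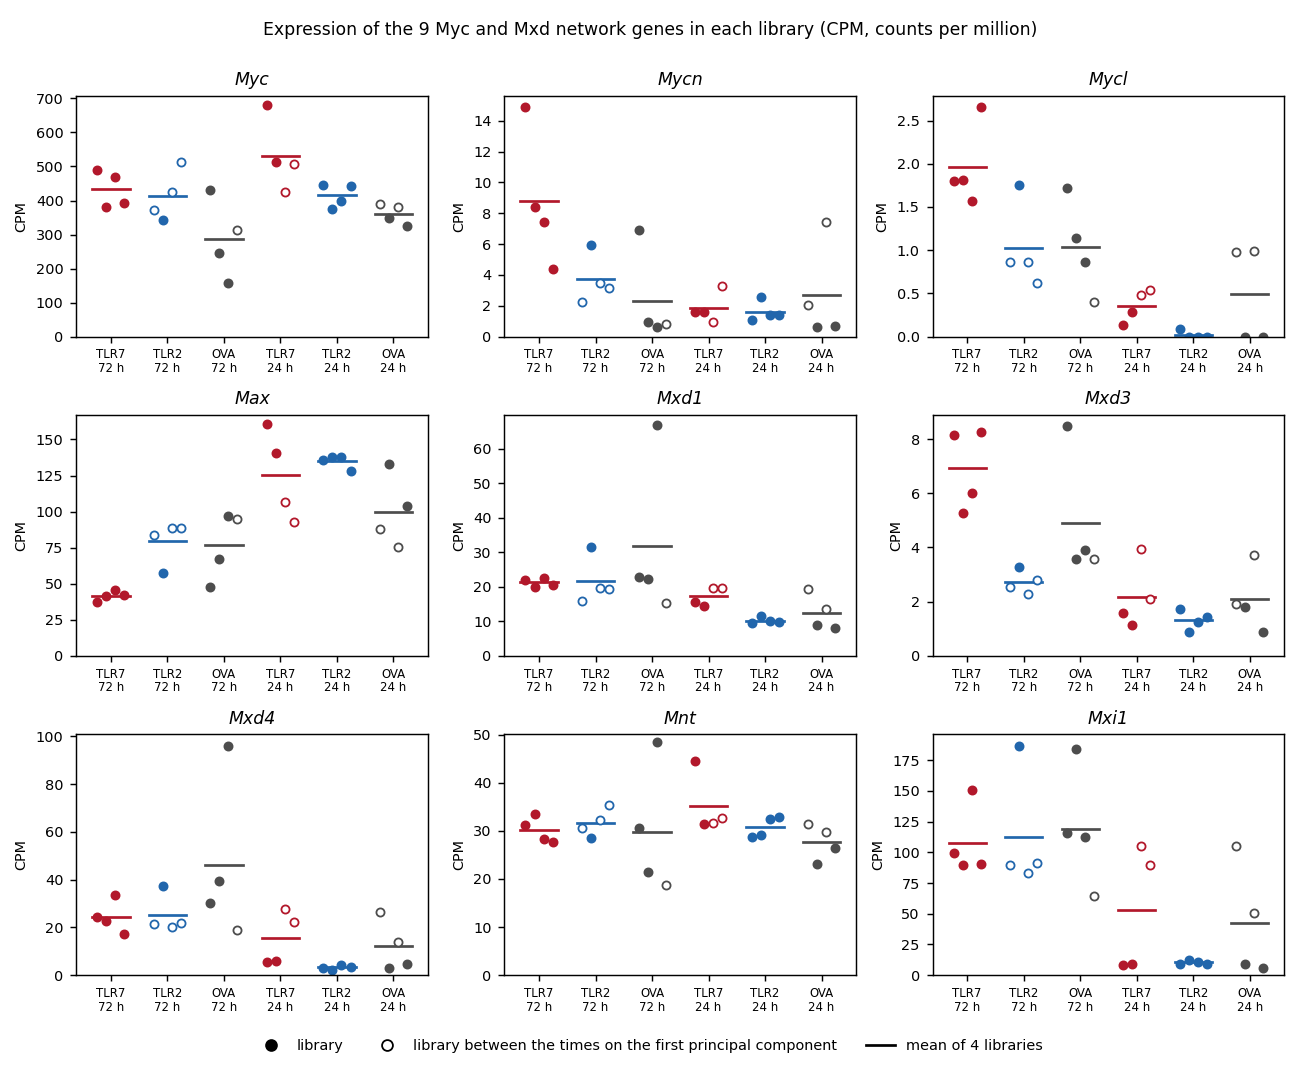
Expression of the 9 genes in CPM (vertical axes, linear, each from 0) in the 6 groups (horizontal axes). Points are libraries, open points the middle libraries and lines the means of 4 libraries; Mxi1 was 82.8 to 187 CPM in TLR2 libraries at 72 h and 9.22 to 12.7 CPM in those at 24 h, and the open Mxi1 points at 24 h lie at 50.7 to 105 CPM.

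The other Myc genes were low. Mycn (chromosome 12, 12936093 to 12941914, minus strand), the family member best known from the developing nervous system, had 14.9, 8.43, 7.44 and 4.40 CPM in TLR7, 2.25, 5.97, 3.51 and 3.14 CPM in TLR2, and 6.90, 0.972, 0.592 and 0.837 CPM in OVA libraries at 72 h. At 24 h it had 1.58, 1.62, 0.951 and 3.28 CPM in TLR7, 1.04, 2.55, 1.43 and 1.43 CPM in TLR2, and 2.05, 0.591, 7.47 and 0.707 CPM in OVA libraries. With TLR7, all 72 h libraries were above all 24 h libraries, and these groups did not overlap for 48.5% of all genes tested. The OVA groups held 1 library each at 6.90 and 7.47 CPM and otherwise at most 2.05 CPM. Mycn rose at 72 h over 24 h with TLR7 (log2 fold change 2.22, SE 0.76, edgeR adjusted p = 0.0242). This call ended without TLR7 72 h replicate 1 (1.85, adjusted p = 0.0774) and without TLR7 24 h replicate 1, 2 or 3 (2.15, 2.17 and 1.99, adjusted p = 0.0645, 0.0628 and 0.0590). It also ended without the 5 libraries under 15 M counts (1.60, edgeR adjusted p = 0.271), where 5 of all genes tested passed. Over time Mycn did not pass with TLR2 (1.20, SE 0.74, edgeR adjusted p = 0.195) or OVA (-0.24, SE 0.73, adjusted p = 0.826). Without the middle libraries it was 2.44 with TLR7 (adjusted p = 0.0213) and 2.19 with OVA (adjusted p = 0.0584). With TLR2, where 1 library was left at 72 h, it was then 1.91. The rise was thus not shown to be particular to TLR7. TLR7 over OVA at 72 h was 1.91 (SE 0.74, adjusted p = 0.159), which did not pass.

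Mycl (chromosome 4, 122995652 to 123002485, plus strand), a family member known from dendritic cells, reached at most 2.65 CPM. It had 1.80, 1.82, 1.57 and 2.65 CPM in TLR7, 0.858, 1.76, 0.866 and 0.622 CPM in TLR2, and 1.73, 1.14, 0.865 and 0.398 CPM in OVA libraries at 72 h. At 24 h it had 0.132, 0.286, 0.476 and 0.533 CPM in TLR7, 0.0835, 0, 0 and 0 CPM in TLR2, and 0.984, 0, 0.990 and 0 CPM in OVA libraries. Both OVA 24 h libraries above 0 were middle libraries. Summed over the 4 libraries of a group, the counts were 146 in TLR7 at 72 h against 31 at 24 h, a depth-scaled ratio of 5.46 (95% exact interval 3.68 to 8.32), and 104 in TLR2 at 72 h against 2 at 24 h, a ratio of 42.4 (11.4 to 355). OVA held 97 counts at 72 h against 49 at 24 h, a ratio of 1.74 (1.22 to 2.50). These intervals cover counting error only, and a count of 0 allows up to 3 counts, or 0.111 to 0.286 CPM between the deepest and the shallowest library. Mycl passed as higher at 72 h with TLR7 (edgeR adjusted p = 0.0177; 0.0607 without TLR7 24 h replicate 1) and with TLR2 (adjusted p = 0.00778), not with OVA (adjusted p = 0.322). Without the middle libraries it passed with OVA too (adjusted p = 1.89e-04). The size of that change is not determined, since both remaining OVA 24 h libraries were at 0. The log2 fold change was then 3.35 with TLR7 and 5.89 with TLR2, where 1 library was left at 72 h. Of the 12 dendritic cell markers, Clec9a, Cd209a and Siglech were at 0 in the TLR7 72 h libraries. The summed dendritic cell markers were 114 to 186 CPM in TLR7, 39.3 to 56.5 CPM in TLR2 and 24.1 to 120 CPM in OVA libraries at 72 h, and 19.5 to 43.3 CPM in TLR7, 29.4 to 34.1 CPM in TLR2 and 34.2 to 110 CPM in OVA libraries at 24 h. Batf3, which activated T cells also express, averaged 137 CPM of the TLR7 72 h sum. The part of these cells in the Mycl values was not tested.

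Max (chromosome 12, 76937269 to 76962201, minus strand), the shared partner of the network, passed the test between agents at 72 h, as did Mxd3 against TLR2. It had 37.2, 41.2, 45.3 and 42.2 CPM in TLR7, 83.7, 57.6, 88.5 and 88.7 CPM in TLR2, and 47.7, 67.5, 96.8 and 94.9 CPM in OVA libraries at 72 h. At 24 h it had 161, 141, 106 and 92.7 CPM in TLR7, 136, 138, 138 and 128 CPM in TLR2, and 87.7, 133, 75.4 and 104 CPM in OVA libraries. Every TLR7 library at 72 h was below every library of the 5 other groups. At 72 h, TLR7 libraries did not overlap those of OVA for 8.7% of all genes tested and those of TLR2 for 23.7%. Max averaged 41.5 ± 3.35 CPM in TLR7 libraries at 72 h and 125 ± 31.1 CPM in TLR7 libraries at 24 h (SD, n = 4 each), and fell with time by 1.59 on the log2 scale (SE 0.22, edgeR adjusted p = 2.76e-04; -1.45 and 0.0775 without the 5 libraries under 15 M counts, where 5 of all genes tested passed). With TLR2 it fell by 0.76 (SE 0.21, adjusted p = 0.0139; -0.63 and 0.0668 without TLR2 72 h replicate 2), and with OVA the difference was -0.38 (SE 0.21, adjusted p = 0.177). Without the middle libraries the OVA difference was -0.76 (SE 0.19, adjusted p = 0.00467), which passed. Max overlaps the gene Gm47218 on its own strand, so reads of the overlap could count for either. In these mixed cultures, a lower share of the cells that carry a transcript cannot be told apart from less of it per cell.

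Against OVA at 72 h, Max fell with TLR7 by 0.89 on the log2 scale (SE 0.22, edgeR adjusted p = 0.0255). It was 1 of 9 members called, where 3.62% of all genes tested were called, 3.21% of them lower. Against TLR2 at 72 h, Max fell by 0.94 (SE 0.22, adjusted p = 0.0227) and Mxd3 rose by 1.34 (SE 0.39, adjusted p = 0.0493), 2 of 9 members where 4.8% of all genes were called, 0.859% higher and 3.94% lower. The first difference was -0.69 (SE 0.16, adjusted p = 0.0472) without the middle libraries, where 1.63% of all genes passed. The second was then -0.43 (SE 0.23, adjusted p = 0.601) with 0% of all genes called; the TLR2 72 h arm was left with 1 library, which is assumed to vary like the other groups. Leaving out OVA 72 h replicate 3 or 4, or TLR7 72 h replicate 1, 2 or 4, also ended the first call (-0.88 to -0.68, edgeR adjusted p = 0.0772 to 0.128). So did fitting these groups alone (-0.86, edgeR adjusted p = 0.136). In all these fits 29 to 278 of all genes passed, against 527 in the main fit. The call against TLR2 ended without TLR2 72 h replicate 1, 3 or 4 or TLR7 72 h replicate 1, 2 or 4 (-0.95 to -0.86, edgeR adjusted p = 0.0686 to 0.0907). In those fits 0 to 103 of all genes passed, against 699 in the main fit. Within the 72 h groups, summed B cell markers moved with Max: OVA replicates 1 to 4 held 396, 596, 874 and 642 CPM of them beside 47.7, 67.5, 96.8 and 94.9 CPM of Max, and all TLR7 libraries were low in both. Their part in the difference was not tested. The TLR7 response of Max differed between the times by -1.21 (SE 0.30, adjusted p = 0.0567), which did not pass, among 0 of 9 members and 0.81% of all genes called. It passed with DESeq2 (adjusted p = 0.0155) and without OVA 72 h replicate 1 (-1.31, adjusted p = 0.0114) or TLR7 24 h replicate 4 (-1.33, adjusted p = 0.0365).

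Among the antagonists, Mxi1, Mxd4, Mxd3 and Mxd1 were higher at 72 h than at 24 h in the means of all 3 agents. At 72 h over 24 h, TLR7 had 3 members higher and 1 lower of 9, where 43.2% of all genes were called, 19% higher and 24.2% lower. TLR2 had 5 higher and 1 lower, where 39% were called, 21.7% higher and 17.4% lower. OVA had 3 higher and 0 lower, where 18.6% were called, 8.17% higher and 10.4% lower. Called members were thus about as frequent as calls among all genes with TLR7 and more frequent with TLR2 and OVA, a description of 9 genes with no test. Each agent had 5 higher and 1 lower without the middle libraries, beside 52.1%, 43.4% and 48.5% of all genes.

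Mxi1 (chromosome 19, 53310518 to 53375810, plus strand) spanned the widest range of the antagonists on the linear scale. It had 99.4, 89.9, 151 and 90.6 CPM in TLR7, 89.5, 187, 82.8 and 91.2 CPM in TLR2, and 116, 184, 113 and 64.5 CPM in OVA libraries at 72 h. The 24 h values were 8.0, 8.96, 105 and 89.3 CPM in TLR7, 9.40, 12.7, 10.8 and 9.22 CPM in TLR2, and 105, 9.36, 50.7 and 6.10 CPM in OVA libraries. The 24 h values formed separate clusters: the 4 middle libraries were at 50.7 to 105 CPM and the 8 others at 6.10 to 12.7 CPM. Mxi1 rose with TLR2 (log2 fold change 3.42, SE 0.80, edgeR adjusted p = 0.00800), while TLR7 (1.02, SE 0.73, adjusted p = 0.255) and OVA (1.47, SE 0.74, adjusted p = 0.137) did not pass. Leaving out OVA 24 h replicate 1 made the OVA difference pass (2.34, adjusted p = 0.0310). With the middle libraries left out, the values were 3.68, 4.17 and 4.15 for TLR7, TLR2 and OVA (SE 0.31, 0.28 and 0.33), and all 3 passed. The agonist response was not shown to differ between the times: the difference was -0.45 (SE 1.02) for TLR7 and 1.94 (SE 1.04, adjusted p = 0.871) for TLR2.

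Mxd4 (chromosome 5, 34173883 to 34187720, minus strand) followed the same libraries at a lower level. It had 24.3, 22.6, 33.5 and 17.4 CPM in TLR7, 21.5, 37.4, 20.2 and 22.0 CPM in TLR2, and 30.3, 39.5, 96.0 and 18.8 CPM in OVA libraries at 72 h. Its 24 h values were 5.67, 6.01, 27.7 and 22.2 CPM in TLR7, 3.13, 2.29, 4.23 and 3.40 CPM in TLR2, and 26.5, 3.18, 14.1 and 4.86 CPM in OVA libraries. The 4 middle libraries at 24 h were at 14.1 to 27.7 CPM, above the 8 others. It rose with TLR2 (2.95, SE 0.63, edgeR adjusted p = 0.00778) and with OVA (1.91, SE 0.59, adjusted p = 0.0372), and with TLR7 the difference was 0.66 (SE 0.57, adjusted p = 0.354). With the middle libraries left out it was 2.07, 3.54 and 3.77 for TLR7, TLR2 and OVA, all past the threshold.

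Mxd1 (chromosome 6, 86647042 to 86669161, minus strand) had 22.0, 20.1, 22.7 and 20.7 CPM in TLR7, 15.9, 31.6, 19.6 and 19.4 CPM in TLR2, and 22.8, 22.3, 66.9 and 15.3 CPM in OVA libraries at 72 h. The 24 h values were 15.5, 14.4, 19.7 and 19.7 CPM in TLR7, 9.48, 11.4, 10.1 and 9.84 CPM in TLR2, and 19.3, 8.91, 13.7 and 7.95 CPM in OVA libraries. At 24 h every TLR7 library was above every TLR2 library, where these groups did not overlap for 14% of all genes tested. Mxd1 rose with time under TLR2 (1.08, SE 0.35, edgeR adjusted p = 0.0228; 0.84 and 0.107 without TLR2 72 h replicate 2) and under OVA (1.34, SE 0.35, adjusted p = 0.0333; 0.68 and 0.0959 without OVA 72 h replicate 3). Under TLR7 the difference was 0.30 (SE 0.34, adjusted p = 0.480), and the TLR7 response at 72 h minus that at 24 h was -1.04 (SE 0.48, adjusted p = 0.290), so the agents were not shown to differ.

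Mxd3 (chromosome 13, 55325168 to 55329823, minus strand) passed at 72 h over 24 h with all 3 agents. It had 8.17, 5.29, 6.01 and 8.26 CPM in TLR7, 2.53, 3.29, 2.30 and 2.82 CPM in TLR2, and 8.50, 3.59, 3.91 and 3.59 CPM in OVA libraries at 72 h. Its 24 h values were 1.58, 1.14, 3.94 and 2.10 CPM in TLR7, 1.71, 0.880, 1.26 and 1.43 CPM in TLR2, and 1.93, 1.82, 3.71 and 0.884 CPM in OVA libraries. The times did not overlap with TLR7 or TLR2, as for 48.5% and 51.1% of all genes tested. At 72 h every TLR2 library was below every TLR7 and every OVA library. TLR7 and TLR2 libraries did not overlap there for 23.7% of all genes, and TLR2 and OVA libraries for 4.62%. The log2 fold changes were 1.64 (SE 0.39, edgeR adjusted p = 0.00366) with TLR7, 1.05 (SE 0.40, adjusted p = 0.0428) with TLR2 and 1.21 (SE 0.39, adjusted p = 0.0409) with OVA. The TLR2 call ended when any 1 of its 8 libraries was left out (0.89 to 1.22, edgeR adjusted p = 0.0502 to 0.122). In those fits 1371 to 5200 of all genes passed, against 5681 in the main fit. The call against TLR2 at 72 h ended without any 1 of 7 of its 8 libraries, TLR2 replicate 2 being the exception (1.25 to 1.45, edgeR adjusted p = 0.0614 to 0.145). In those 7 fits 0 to 581 of all genes passed, against 699 in the main fit.

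With OVA, the calls of Mxd1, Mxd3 and Mxd4 over time rested on single libraries. Without OVA 24 h replicate 2, OVA 24 h replicate 4, OVA 72 h replicate 1, OVA 72 h replicate 2 or OVA 72 h replicate 3, none of the 3 passed. Mxd4 was then 1.49, 1.66, 1.95, 1.86 and 1.27, Mxd3 1.07, 0.98, 0.72, 1.28 and 1.30, and Mxd1 1.10, 1.18, 1.36, 1.37 and 0.68, in the same order, with adjusted p of 0.0570 to 0.189. Mxd3 also no longer passed without OVA 24 h replicate 1 (1.11, adjusted p = 0.0614).

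Mnt (chromosome 11, 74830920 to 74845725, plus strand), a broadly expressed Myc antagonist, was the flattest member. Its group means were 30.2 ± 2.64 CPM in TLR7, 31.7 ± 2.90 in TLR2 and 29.8 ± 13.5 in OVA libraries at 72 h, and 35.1 ± 6.35 in TLR7, 30.8 ± 2.17 in TLR2 and 27.7 ± 3.70 in OVA libraries at 24 h (SD, n = 4 each). The groups overlapped, and its largest difference between groups was 0.34 (SE 0.21, edgeR adjusted p = 0.644), for TLR7 over OVA at 24 h.

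**Figure D3:**
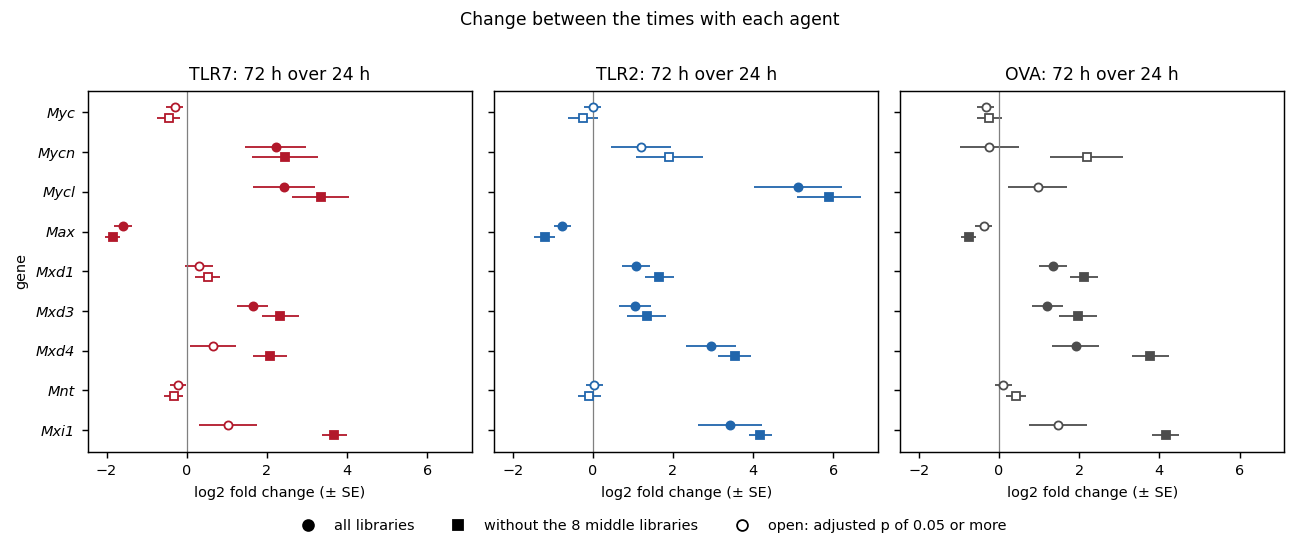
Log2 fold change of the 9 genes at 72 h over 24 h (horizontal axes, ± SE) with TLR7, TLR2 and OVA. Circles use all libraries and squares leave out the 8 middle ones; open marks did not pass. The OVA square of Mycl is not drawn because both remaining 24 h libraries were at 0, and Mxi1 moves to 3.68, 4.17 and 4.15 when the middle libraries are left out.

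At 24 h the agonists changed 0 of 9 members by edgeR against OVA, where 0.22% of all genes were called with TLR7 and 0% with TLR2, and 0 of 9 between TLR7 and TLR2, where 1.24% were. At an unadjusted p under 0.05 there were 1, 3 and 4 members, against 10.1%, 15.2% and 21.3% of all genes, and DESeq2 called 0, 2 and 3, beside 243, 345 and 1016 of all genes. Against OVA with TLR2 those 3 were Mxd4 (-1.91, SE 0.61), Mxi1 (-2.03, SE 0.76) and Mycl, and DESeq2 called Mxd4 and Mycl. OVA and TLR7 held 2 middle libraries each at 24 h and TLR2 held 0. Without the 8 middle libraries, Mxd4 with TLR2 was -0.29 (SE 0.41) against OVA, and Mxi1 was 0.43 (SE 0.28). In TLR7 over TLR2 at 24 h, Mxd4 was 2.25 (SE 0.61, edgeR adjusted p = 0.0681) and Mxi1 2.33 (SE 0.77, adjusted p = 0.101). These were 0.89 (SE 0.39) and -0.26 (SE 0.27) without the middle libraries. At 72 h TLR2 changed 0 of 9 members against OVA by edgeR and 0 by DESeq2, where edgeR called 0% of all genes, with Myc and Mxd3 at an unadjusted p under 0.05 beside 11.6% of all genes. For the TLR2 response at 72 h minus that at 24 h, edgeR called 0 members (0% of all genes) and DESeq2 0, with Mycl at an unadjusted p under 0.05 beside 6.31% of all genes.

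**Figure D4:**
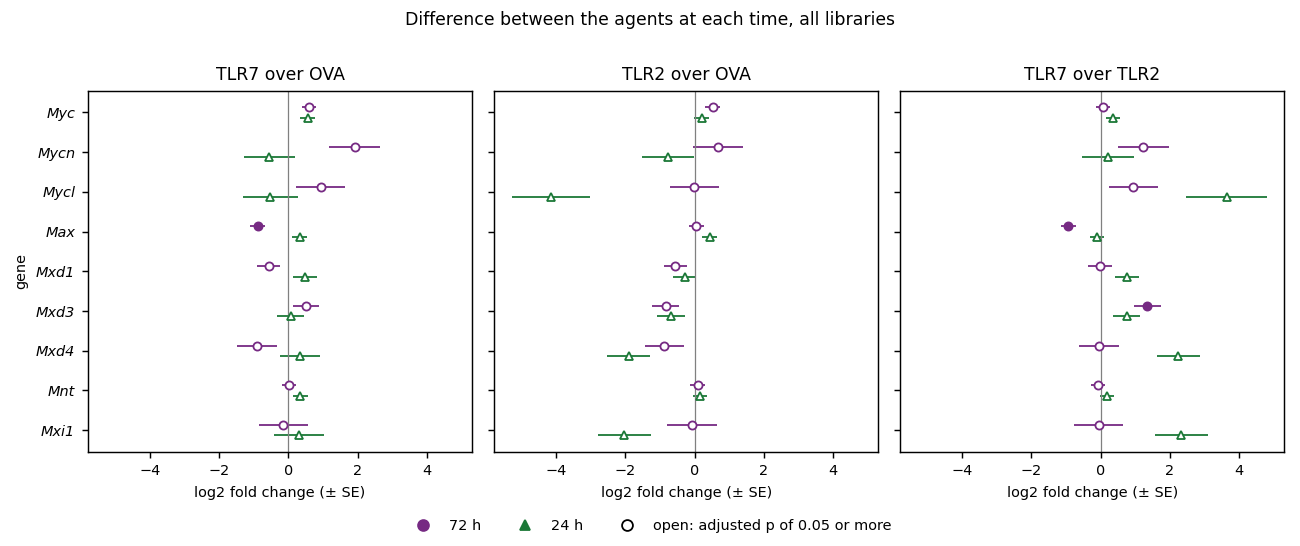
Log2 fold change between agents (horizontal axes, ± SE) for the 9 genes at 72 h (circles) and 24 h (triangles), all libraries. Filled marks passed: Max in TLR7 over OVA (-0.89) and in TLR7 over TLR2 (-0.94), and Mxd3 in TLR7 over TLR2 (1.34), all at 72 h.

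The wider Max network was followed through Mga, which pairs with Max, and through Mlx with its partners Mlxip and Mlxipl, which sense sugar phosphates. Mlxipl had 13 counts over all libraries and was not tested. Mlx fell at 72 h against 24 h with TLR7 (-0.64, SE 0.16, edgeR adjusted p = 0.00496) and TLR2 (-0.50, SE 0.16, adjusted p = 0.0231), and was -0.40 (SE 0.16, adjusted p = 0.0720) with OVA. Mlxip rose with TLR2 (0.66, SE 0.18, adjusted p = 0.0125), and was -0.14 (SE 0.18) with TLR7 and 0.45 (SE 0.18, adjusted p = 0.0740) with OVA. Both OVA differences passed without the middle libraries, at -0.80 (adjusted p = 8.20e-04) for Mlx and 0.73 (adjusted p = 0.0119) for Mlxip. Mga was -0.38, -0.03 and -0.13 (SE 0.21, 0.20 and 0.20) with TLR7, TLR2 and OVA, and did not pass.

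Genes that Myc is known to activate for ribosome production, nucleotide synthesis and growth were lower at 72 h than at 24 h. Of 64 such genes, 3 rose and 50 fell with TLR7, 1 rose and 35 fell with TLR2, and 0 rose and 55 fell with OVA, where 43.2%, 39% and 18.6% of all genes were called. Their median log2 fold changes were -1.22, -0.88 and -1.12, beside medians of -0.01, -0.01 and 0.09 over all genes tested. Without the middle libraries 2 rose and 54 fell with TLR7 and 1 rose and 57 fell with OVA, beside 52.1% and 48.5% of all genes called. With TLR2, where 1 library was left at 72 h, the median was then -2.06. Myc itself did not pass over the same interval. With TLR7, Odc1, the first enzyme of polyamine synthesis, averaged 348 ± 30.1 CPM at 72 h and 1235 ± 348 CPM at 24 h (SD, n = 4 each; -1.83, SE 0.32, edgeR adjusted p = 7.31e-04). Utp20, a factor of small ribosomal subunit assembly, averaged 50.5 ± 5.35 CPM at 72 h and 346 ± 134 CPM at 24 h (-2.78, SE 0.55, adjusted p = 0.00128), and Las1l, a ribosomal RNA processing factor, fell by 1.35 (SE 0.26). With TLR2, Tfam, a mitochondrial transcription factor, fell by 0.73 (SE 0.21, adjusted p = 0.0141) and Cdc25a, a cell cycle phosphatase, by 1.15 (SE 0.35, adjusted p = 0.0198). With OVA, Ddx18, an RNA helicase of the nucleolus, averaged 106 ± 69.4 CPM at 72 h and 281 ± 110 CPM at 24 h (-1.41, SE 0.37, adjusted p = 0.0333), and Bysl, of small subunit assembly, fell by 1.44 (SE 0.37). Among the few that rose was Sord, an enzyme of the polyol pathway, at 1.29 (SE 0.51, adjusted p = 0.0471) with TLR7 and 2.62 (SE 0.55, adjusted p = 0.00778) with TLR2.

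Glycolytic and amino acid genes tied to Myc were called in both directions with TLR7 and TLR2. Of 21, 6 rose and 5 fell with TLR7, 8 rose and 3 fell with TLR2, and 0 rose and 1 fell with OVA at 72 h, beside the 43.2%, 39% and 18.6% of all genes called, with medians of 0.30, 0.40 and 0.30. Eno1, a glycolytic enolase, averaged 3623 ± 378 CPM in TLR7 libraries at 72 h and 1544 ± 577 CPM at 24 h (SD, n = 4 each; 1.23, SE 0.34, edgeR adjusted p = 0.00753). With TLR2 the glucose transporter gene Slc2a3 averaged 478 ± 232 CPM at 72 h and 40.5 ± 2.69 CPM at 24 h (3.56, SE 0.82, adjusted p = 0.00798), and the lactate transporter gene Slc16a1 fell by 0.88 (SE 0.27). Slc16a1 also fell with OVA (-0.97, SE 0.27, adjusted p = 0.0333). Without the middle libraries 11 rose and 5 fell with TLR7 and 10 rose and 4 fell with OVA, beside 52.1% and 48.5% of all genes called. With TLR2, where 1 library was left at 72 h, the median was then 0.58.

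Of 9 genes that Myc is known to repress, 8 were tested. With TLR7 1 rose and 1 fell, with TLR2 4 rose and 0 fell, and with OVA 3 rose and 0 fell, with medians of 0.79, 1.39 and 0.64. The shares of all genes called were again 43.2%, 39% and 18.6%. Cdkn2c, which inhibits Cdk4 and Cdk6, rose with TLR7 (1.69, SE 0.33, edgeR adjusted p = 0.00126) and OVA (1.09, SE 0.33, adjusted p = 0.0351). Cdkn1a, the inhibitor p21, averaged 83.8 ± 33.2 CPM in TLR2 libraries at 72 h and 17.2 ± 2.18 CPM at 24 h (SD, n = 4 each; 2.29, SE 0.37, adjusted p = 0.00778). Cdkn1b, the inhibitor p27, rose with TLR2 (2.08, SE 0.50, adjusted p = 0.00831) and OVA (1.81, SE 0.49, adjusted p = 0.0333), and Klf6, a zinc finger factor, fell with TLR7 (-1.08, SE 0.23, adjusted p = 0.00214). Without the middle libraries 7 rose and 1 fell with TLR7 and 6 rose and 0 fell with OVA, beside 52.1% and 48.5% of all genes called. With TLR2, where 1 library was left at 72 h, the median was then 1.97.

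**Figure D5:**
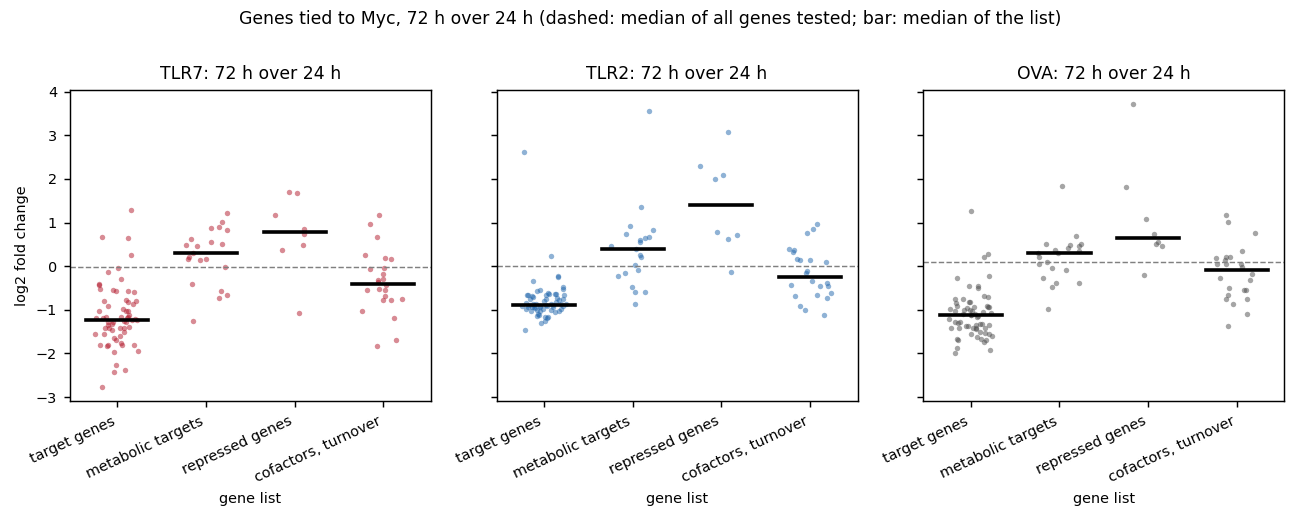
Log2 fold changes at 72 h over 24 h (vertical axes) of the genes in 4 lists tied to Myc (horizontal axes) with TLR7, TLR2 and OVA. Points are genes, bars the list medians and dashed lines the medians of all genes; the target gene medians are -1.22, -0.88 and -1.12.

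Cofactors of the network and genes of Myc protein turnover (24 of 25 in the files, all 24 tested) moved both ways: 3 rose and 10 fell with TLR7, 2 rose and 9 fell with TLR2 and 3 rose and 6 fell with OVA at 72 h, with medians of -0.40, -0.24 and -0.10, where 43.2%, 39% and 18.6% of all genes were called. Wdr5, a chromatin adaptor that binds Myc, fell with all 3 agents, by 1.02 (SE 0.21, edgeR adjusted p = 0.00161) with TLR7, 0.68 (SE 0.21, adjusted p = 0.0198) with TLR2 and 0.75 (SE 0.21, adjusted p = 0.0333) with OVA. Fbxw7, the ubiquitin ligase subunit that targets Myc protein, averaged 17.1 ± 1.58 CPM in TLR7 libraries at 72 h and 39.0 ± 9.31 CPM at 24 h (SD, n = 4 each; -1.18, SE 0.21, adjusted p = 7.96e-04). Bin1, a Myc-binding adaptor, rose with TLR7 (0.96, SE 0.25), TLR2 (0.97, SE 0.25) and OVA (0.75, SE 0.25, adjusted p = 0.0442). Aurka, a kinase that stabilises N-Myc protein, rose with TLR7 (1.17, SE 0.32, adjusted p = 0.00752) and OVA (1.17, SE 0.32, adjusted p = 0.0333).

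Between agents few of these genes passed. In TLR7 over TLR2 at 24 h, Slc3a2, an amino acid transporter chain, rose by 0.70 (SE 0.15, edgeR adjusted p = 0.0227) and Cdkn1a by 1.71 (SE 0.36, adjusted p = 0.0249). Cdkn1a still passed without the middle libraries (1.41, adjusted p = 0.0144) and Slc3a2 did not (0.59, adjusted p = 0.0891). In TLR7 over OVA at 72 h, Hk2, a hexokinase, averaged 259 ± 35.4 CPM in TLR7 and 128 ± 52.1 CPM in OVA libraries (SD, n = 4 each; 1.01, SE 0.24, adjusted p = 0.0237), and Sin3a, the corepressor that Mxd proteins recruit, fell by 0.66 (SE 0.16, adjusted p = 0.0259). Both calls ended without the middle libraries, at 1.05 (adjusted p = 0.0735) for Hk2 and -0.51 (adjusted p = 0.0893) for Sin3a. In TLR7 over TLR2 at 72 h, 1 of the 64 activated genes rose and 4 fell, where 0.859% of all genes were called higher and 3.94% lower. Odc1 was among those that fell (-1.17, SE 0.31, edgeR adjusted p = 0.0391). Without the middle libraries, where 1 TLR2 library was left at 72 h, its log2 fold change was 0.04.

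The genes whose 6 group means came closest to a member, as the root mean square of the difference in centred log2 CPM over the 6 groups, were Plpp2, Slc12a8 and Hip1 for Mxi1 (0.103 to 0.179), Bbc3, Phf11b and Epsti1 for Mxd4 (0.118 to 0.165), Zdhhc13, Ascc3 and Tdg for Max (0.0852 to 0.0881), Zfp821, Hbp1 and Zfc3h1 for Mxd1 (0.0573 to 0.0761) and Atpif1, Zfp810 and Tspan13 for Mxd3 (0.109 to 0.146). For Mycn they were Gcnt1, Piwil2 and Lmna (0.215 to 0.271), and for Mycl Chac1, Grik5 and Sema4a (0.199 to 0.207). The 9162 or 9163 genes of at least 5 CPM were ranked, so close matches over 6 points describe the pattern and support nothing. Myc and Mnt were not ranked, since their group means spanned less than 1 on the log2 scale (0.96 and 0.33).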

How the data were processed

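The authors deposited expected counts per gene for each library, unscaled, and per the submitters' processing notes used STAR, RSEM and edgeR on GRCm38; their versions and roles, the annotation release and the strand setting stay unstated in those sources. That the unit is expected counts was read from the deposited files, where 28.7% of the values above 0 are not whole. Max and Mxd1 overlap another gene on the same strand, and Mxd3, Mxd4 and Mxi1 one on the opposite strand, so their values are uncertain where reads overlap.

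Expected counts were rounded and tested in R 4.3.3 with edgeR 4.0.16's quasi-likelihood F test: TMM scaling, filterByExpr (minimum count 10, minimum total 15; 14560 genes kept), 1 term for each of 6 groups, all 24 libraries, 18 residual degrees of freedom, Benjamini-Hochberg adjustment over all genes tested and a threshold of 0.05. The biological coefficient of variation was 0.321 over all genes. Of the comparisons, 9 set a group against another and 2 were differences between times. CPM used TMM-scaled library sizes, log2 CPM a prior count of 2, and levels per kilobase the union of exons in GENCODE M21, which held 48058 of the gene IDs and gave the positions. The pipeline was tested on simulated data. No pair of replicates agreed within sampling noise (chi-square per gene at least 4.58).

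The genes, lists and tests were chosen with earlier results of these data known. Named list genes are the 3 or fewer with the smallest adjusted p in a direction. Alternatives were other scalings, no filter, a replicate block, fits without the 8 middle or the 5 shallow libraries, fits of the compared groups alone, DESeq2 1.42.0 and leaving out each replicate. Whether replicate numbers pair the libraries is not known, since the labels do not say, and the main fit used no pairing. Of 60 same-numbered pairs, 21 correlated above 0.1 in their deviations from group means (range -0.616 to 0.525). This cannot decide the question, because such deviations also follow which libraries were middle ones.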

Additional observations from a re-analysis of the deposited data

Results flagged for a closer look

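In 9 of the 54 combinations of a gene and a group, the highest or lowest of the 4 libraries stood apart from the other 3 by more than Dixon's 95% limit. That limit supposes independent, normally distributed values. Several of the 9 fell in the same library, and 1 had counts of 0 in the other 3 libraries. The 9 are thus a description and cannot be set against a rate by chance. TLR2 72 h replicate 2, the library of its group outside the middle set, was low in Max (57.6 CPM, the others 83.7 to 88.7) and high in Mxd4 (37.4 CPM, the others 20.2 to 22.0) and Mxi1 (187 CPM, the others 82.8 to 91.2). OVA 72 h replicate 1 was high in Mycn (6.90 CPM, the others 0.592 to 0.972) and Mxd3 (8.50 CPM, the others 3.59 to 3.91). OVA 72 h replicate 3 was high in Mxd1 (66.9 CPM, the others 15.3 to 22.8). TLR7 72 h replicate 3 was high in Mxi1 (151 CPM, the others 89.9 to 99.4), and TLR7 24 h replicate 1 in Mnt (44.5 CPM, the others 31.4 to 32.6). TLR2 24 h replicate 1 held 2 counts of Mycl (0.0835 CPM) beside 0 in the others.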

How the results depend on the processing

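The number of the 9 genes called was the same with RLE scaling in all 11 comparisons. Without TMM factors it was 1 in place of 2 for TLR7 over TLR2 at 72 h, and 1 in place of 0 for the TLR7 response at 72 h minus 24 h, where DESeq2 also gave 1. DESeq2 gave 2 in place of 0 for TLR2 over OVA and 3 in place of 0 for TLR7 over TLR2, both at 24 h, beside 345 and 1016 of all genes. With no filter it was 1 in place of 2 for TLR7 over TLR2 at 72 h and 1 in place of 3 for OVA over time. Fitting the compared groups alone gave 1 in place of 0 for TLR7 over TLR2 at 24 h, beside 405 of all genes (180 in the main fit). The number was 0 in place of 1 for TLR7 over OVA at 72 h (29 of all genes, against 527). For OVA over time the number was 0 in place of 3. For TLR7 over TLR2 at 72 h the number was 3 in place of 2 (3302 of all genes, against 699). For TLR2 over time the number was 7 in place of 6 (6532 of all genes, against 5681). With the replicate block it was 1 in place of 2 for TLR7 over TLR2 at 72 h (Mxd3, adjusted p = 0.0514), and the block changed no other call; 8 of 24 libraries correlated best with one of their own number. Without the middle libraries it was 0 in place of 2 for TLR7 over TLR2 at 72 h, and 6 in place of 3 for OVA over time. The shallow libraries came from every group but TLR2 and OVA at 72 h. Without them the number was 0 in place of 1 and 2 for TLR7 over OVA and over TLR2 at 72 h, beside 0 of all genes. It was also 0 in place of 4 for TLR7 over time, beside 5 of all genes, and 0 in place of 3 for OVA over time. For TLR2 over time it was 4 in place of 6 (Mxd1 and Mxd3, edgeR adjusted p = 0.0664 and 0.0627), beside 2847 of all genes.

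Leaving out 1 replicate gave 0 to 2 for TLR2 over OVA and for TLR7 over TLR2 at 24 h, 0 to 3 and 0 to 2 for TLR7 over OVA and over TLR2 at 72 h, 2 to 4, 3 to 5 and 0 to 3 over time for TLR7, TLR2 and OVA, and 0 to 2 for the TLR7 difference between times. The 3 for TLR7 over OVA came without OVA 72 h replicate 1 (1370 of all genes, 527 with all libraries), the 2 over time for TLR7 without TLR7 24 h replicate 1 (4093, against 6288), the 3 for TLR2 without TLR2 72 h replicate 2 (1371, against 5681), and the 2 between times without OVA 72 h replicate 1. At 24 h the 2 over OVA came without OVA 24 h replicate 2, and the 2 over TLR2 without TLR7 24 h replicate 1 or 2.

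Signs turned without the middle libraries in several combinations. Among them were Mycl in TLR2 over OVA at 24 h (2.24, against -4.16 with all) and Mxi1 in the same comparison (0.43, against -2.03). Others were Mxi1 in TLR7 over TLR2 at 24 h (-0.26, against 2.33) and Mycn in TLR2 over OVA at 24 h (1.33, against -0.76). In TLR7 over OVA at 24 h, Mycn (1.37, against -0.55) and Mycl (4.99, against -0.52) turned too. None of these passed without the middle libraries, and the cause was not tested. Of 99 combinations of a gene and a comparison, 69 passed in no analysis of all replicates, and 38 of these changed sign under some alternative. Depth limits Mycl and Mxd3, whose 24 h values were at most 0.990 and 3.94 CPM.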

Other observations

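In OVA 72 h replicate 3 the balance of the network lay farthest toward the antagonists. It held the lowest Myc of the 24 libraries (159 CPM) together with the highest Mxd1 (66.9 CPM), Mxd4 (96.0 CPM) and Mnt (48.5 CPM), and Mycn was at 0.592 CPM. Myc, Mycn and Mycl made up 43.6% of the network's level per kilobase there, against 60.4, 71.7 and 77.4% in the other OVA 72 h libraries. Its summed B cell markers were 874 CPM, against 396 to 642 CPM in those libraries. Markers of macrophages and monocytes summed to 191 CPM, against 65.1 to 82.2 CPM, those of neutrophils to 37.6 CPM, against 0 to 6.57 CPM, and those of erythroid cells to 24.8 CPM, against 0.210 to 1.24 CPM. The part of these cells in these values was not tested.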
